A study of Mus musculus with 29 samples.

Results

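The genes of sphingolipid metabolism were followed in RNA-seq of mouse bladder urothelium. The 38 genes were chosen by symbol as the enzymes and subunits that make ceramide, the proteins that restrain them, and the enzymes that turn ceramide into other lipids or break those lipids down. All 38 are in the tables, which hold 35199 genes. The study activated Pparg, a nuclear receptor of luminal urothelial differentiation, through K5VP16;Pparg, in which Krt5CreERT2 removes a stop cassette in basal cells after tamoxifen and a Rosa26 transgene then expresses PPARG joined to the VP16 activator. Of 29 samples, 21 were used here.

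Basal cells with the mTmG reporter, sorted by Gfp 4 days after tamoxifen, came from 4 controls labelled wild type and 5 mutants labelled K5VP16;Pparg+/-, all untreated with carcinogen. Tumors were labelled with 5 months of BBN, a nitrosamine carcinogen given at 0.05% in drinking water, and the titles of these samples give 4 months. Laser capture gave 3 basal tumors labelled wild type, from mice that the study calls VP16;Pparg fl/fl or K5;mTmG controls. It also gave 3 luminal tumors of K5VP16;Pparg+/- mice and, from lesions of K5VP16;Pparg+/- mice that hold an upper luminal and a lower basal-like part, 3 luminal domains and 3 basal-like domains. The labels give no ages and do not say which captures share an animal, so that the p-values measure the spread between libraries and are too small if captures of a group share one. All tumor samples share the BBN, and basal and luminal tumors differ in subtype and transgene alike, which cannot be told apart. The values are normalized counts, compared only within a table because each table was normalized on its own.

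Sphingolipids are membrane lipids built on a long-chain base. Serine palmitoyltransferase makes the base from serine and a fatty acyl-CoA, ceramide synthases add a fatty acid, and a desaturase turns dihydroceramide into ceramide. Ceramide becomes sphingomyelin, a glycolipid or ceramide phosphate, or is cut to sphingosine, which kinases turn into the signalling lipid sphingosine 1-phosphate. In skin and other barrier epithelia, forms of these enzymes that make hydroxylated or very long ceramides support the barrier.

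Normalized counts summed to 36520193 to 41435665 per library of sorted cells and to 41697178 to 53904714 per library of tumors, and the number of reads behind them is unknown. Pparg had 9381 to 9999 normalized counts in controls and 6111 to 9032 in mutants at 4 days, where reads of the transgene were not told apart from those of the gene. Every mutant thus lay below every control, although the mutants are labelled with the transgene. In tumors Pparg had 13.0 to 126 in basal tumors and 3579 to 8632 in luminal tumors. None of the 8 basal and 9 superficial urothelial markers was at 0 in any library used. In sorted cells the basal markers summed to 344352 to 391512 normalized counts in controls and 194768 to 310248 in mutants, with 3 of 8 positive and 5 negative by log2 fold change, 1 called in each direction.

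Promoters are shown for Sptlc3, Sptssb, Degs2 and Acer2, the 4 members called higher in luminal than in basal tumors, because the results turn on them. Each run is the 250 bases before the start site in RefSeq (GRCm38.p6), 5′ to 3′ on the strand of the gene, in lower case, with capitals where the GC box, GGGCGG on either strand, was found.
Sptlc3, chr2:139493663-139493912, plus strand: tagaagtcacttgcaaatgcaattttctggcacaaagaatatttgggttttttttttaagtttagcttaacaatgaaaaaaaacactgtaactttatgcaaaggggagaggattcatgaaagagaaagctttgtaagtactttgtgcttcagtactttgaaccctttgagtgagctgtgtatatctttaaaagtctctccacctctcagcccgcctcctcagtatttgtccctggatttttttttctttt
Sptssb, chr3:69859895-69860144, minus strand: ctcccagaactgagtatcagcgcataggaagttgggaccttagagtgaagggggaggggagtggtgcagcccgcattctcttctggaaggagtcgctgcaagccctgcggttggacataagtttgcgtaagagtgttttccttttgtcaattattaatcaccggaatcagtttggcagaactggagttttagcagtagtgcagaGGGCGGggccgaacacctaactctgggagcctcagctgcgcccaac
Degs2, chr12:108702307-108702556, minus strand: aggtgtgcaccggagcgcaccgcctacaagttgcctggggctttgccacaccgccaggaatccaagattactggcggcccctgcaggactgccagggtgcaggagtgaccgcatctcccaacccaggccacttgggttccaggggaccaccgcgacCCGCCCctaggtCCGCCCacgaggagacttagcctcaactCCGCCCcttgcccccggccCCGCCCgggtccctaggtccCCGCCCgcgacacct
Acer2, chr4:86874164-86874413, plus strand: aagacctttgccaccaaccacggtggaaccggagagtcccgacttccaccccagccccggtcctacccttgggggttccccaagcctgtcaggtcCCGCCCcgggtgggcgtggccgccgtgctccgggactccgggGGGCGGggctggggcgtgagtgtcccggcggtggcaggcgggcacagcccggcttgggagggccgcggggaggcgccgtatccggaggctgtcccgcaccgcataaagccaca
The Degs2 window held 5 GC boxes, that of Acer2 held 2, that of Sptssb held 1 and that of Sptlc3 held none. GC content was 69.2% for Degs2, 73.2% for Acer2, 53.2% for Sptssb and 35.6% for Sptlc3, beside a median of 52.4% over all 32851 promoters of this length. The GC box was in 32.7% of all promoters and in 28 of the 51 promoters that the table holds for 36 members. The nuclear receptor half-site AGGTCA (in 14.0% of all promoters), a direct repeat that contains it, AGGTCANAGGTCA (0.0335%), the forkhead motif TGTTTAC (3.17%), the GATA motif AGATAA (9.99%) and the TATA box TATAAA (12.4%) were searched on both strands as well. Their letters are not in these 4 windows, and at such shares absence from 4 windows tells little. Of the 51 member promoters, 13 held the half-site, 0 the direct repeat, 1 the forkhead motif, 3 the GATA motif and 1 the TATA box. These counts were not tested against all promoters. The genes lie at chr2:139493913-139637061 (Sptlc3), chr3:69819538-69861363 (Sptssb), chr12:108686792-108702306 (Degs2) and chr4:86874348-86932524 (Acer2), and for Sptssb and Acer2 the start site used lies within the span of the gene.

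**Figure D1:**
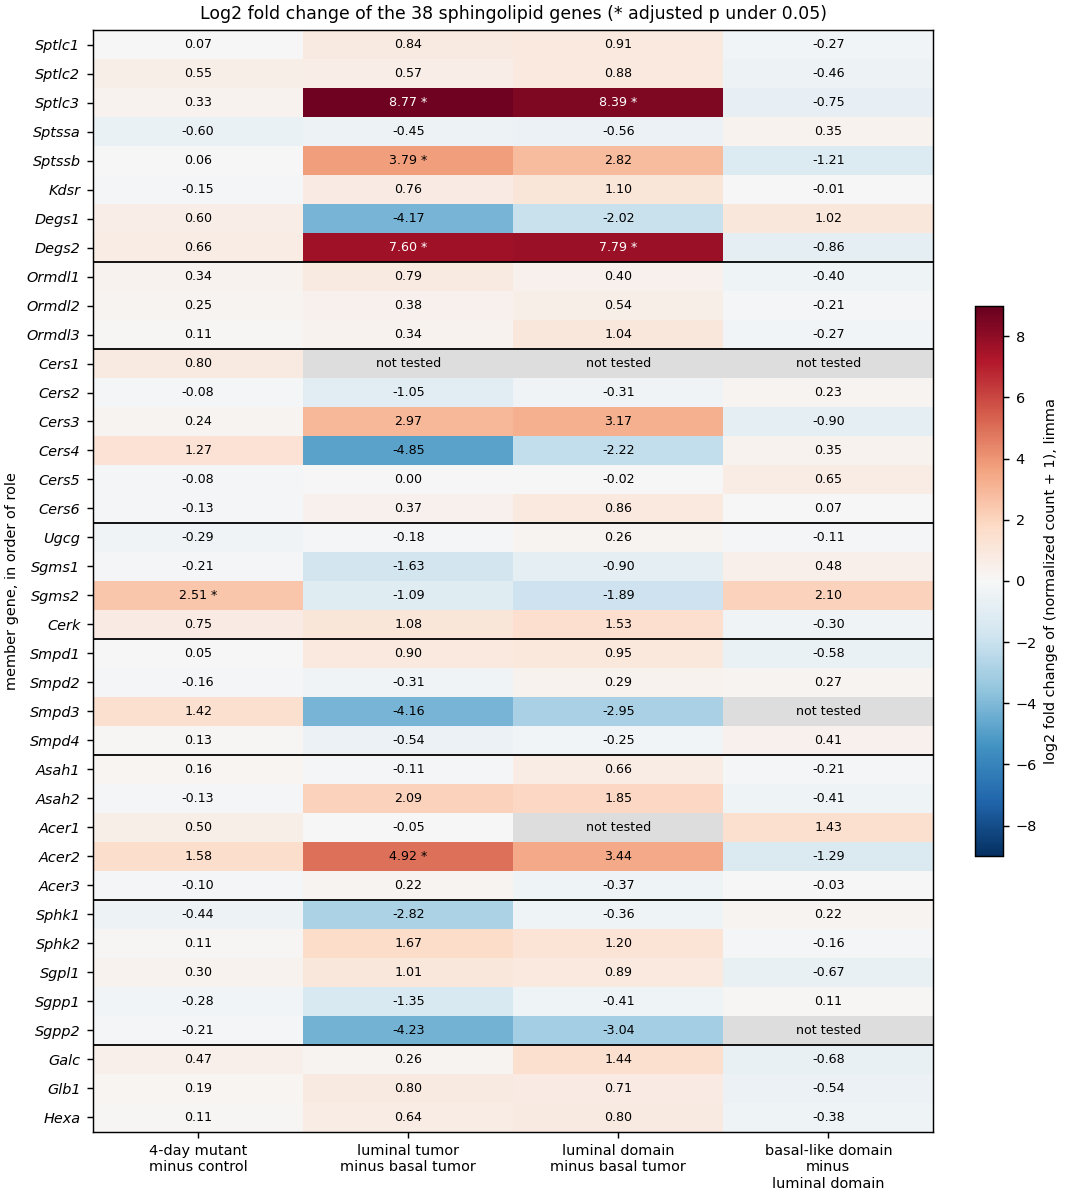
Log2 fold change of (normalized count + 1) for each of the 38 genes (rows, in order of role) in the 4 comparisons (columns), with an asterisk at an adjusted p under 0.05 and grey where a gene was too low to test. The strongest red is at Sptlc3 and Degs2 in the tumor columns, with 8.77 and 7.60 in luminal against basal tumors, while the first and last columns are mostly pale.

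The first comparison asked how the pathway stood in basal cells 4 days after induction of the Pparg transgene. Sgms2, which makes sphingomyelin from ceramide at the plasma membrane, was higher in mutants and was the 1 gene of 38 that passed the test. Among all 16413 genes tested 2.85% were called (1.77% higher and 1.08% lower). The median log2 fold change was 0.12 over the members and 0.00 over all genes. An unadjusted p under 0.05 was found for 7 of 38 members and for 20.8% of all genes.

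Sgms2 (chr3:131318985-131491443) had 22.7, 37.7, 50.7 and 69.8 normalized counts in controls and 77.9, 182, 217, 503 and 544 in mutants. The groups did not overlap, and the mutants were spread more widely than the controls. Controls averaged 45.2 ± 20.0 (SD, n = 4), mutants averaged 305 ± 207 (SD, n = 5), and the log2 fold change was 2.51 with a standard error of 0.57 (limma, adjusted p = 0.0489). The call was close to the threshold, and each fit without 1 library also has fewer libraries. It was lost (adjusted p in brackets) without control CT063 (0.0958), CT065 (0.130), CT066 (0.115) or CT067 (0.0748). The same held without mutant CT070 (0.0824), CT074 (0.0939), CT076 (0.0784) or CT078 (0.0648). Without mutant CT071 the adjusted p was 0.0167.

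Markers of other cells moved with Sgms2. All 8 fibroblast markers had a positive log2 fold change, with a median of 2.02 and 1 called, and their summed normalized count was 12166 to 89779 in controls and 31904 to 230364 in mutants, with none at 0. In each group the libraries stood in the same order by Sgms2 and by this sum. Of the genes given below, Cers4 kept this order in both groups, and Smpd3 and Spns2 kept it in controls. All 6 smooth muscle markers were positive, with sums of 174 to 1042 and 410.0 to 2719 and none at 0. The endothelial markers summed to 262 to 1139 and 277 to 1309, with Cdh5 at 0 in 4 of 4 controls and 4 of 5 mutants. The 9 superficial urothelial markers were all positive, with a median log2 fold change of 0.61, 1 called, and sums of 241289 to 452443 and 304095 to 663262. Of 9 immune markers tested 6 were positive and none was called, with sums of 2411 to 4164 in controls and 2014 to 24711 in mutants. The part of these cells in the result was not tested, and in bulk RNA a change in the number of cells of a type and in their RNA per cell cannot be told apart.

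A score of 4 Y-linked genes, their mean log2(normalized count + 1), was 11.05 to 11.11 in 3 controls, 5.59 in control CT063 and 5.16 to 5.91 in the mutants. Within the libraries of low score, 1 control and 5 mutants, the log2 fold change of Sgms2 was 3.36. With 1 control no test can decide this difference. That control, CT063, also had the lowest Sgms2 and the lowest fibroblast sum of the controls. The high-score libraries are all controls and give no value of their own. The score thus nearly follows the groups at 4 days. What it marks, such as sex, therefore cannot be told apart from the transgene for any gene in this comparison.

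**Figure D2:**
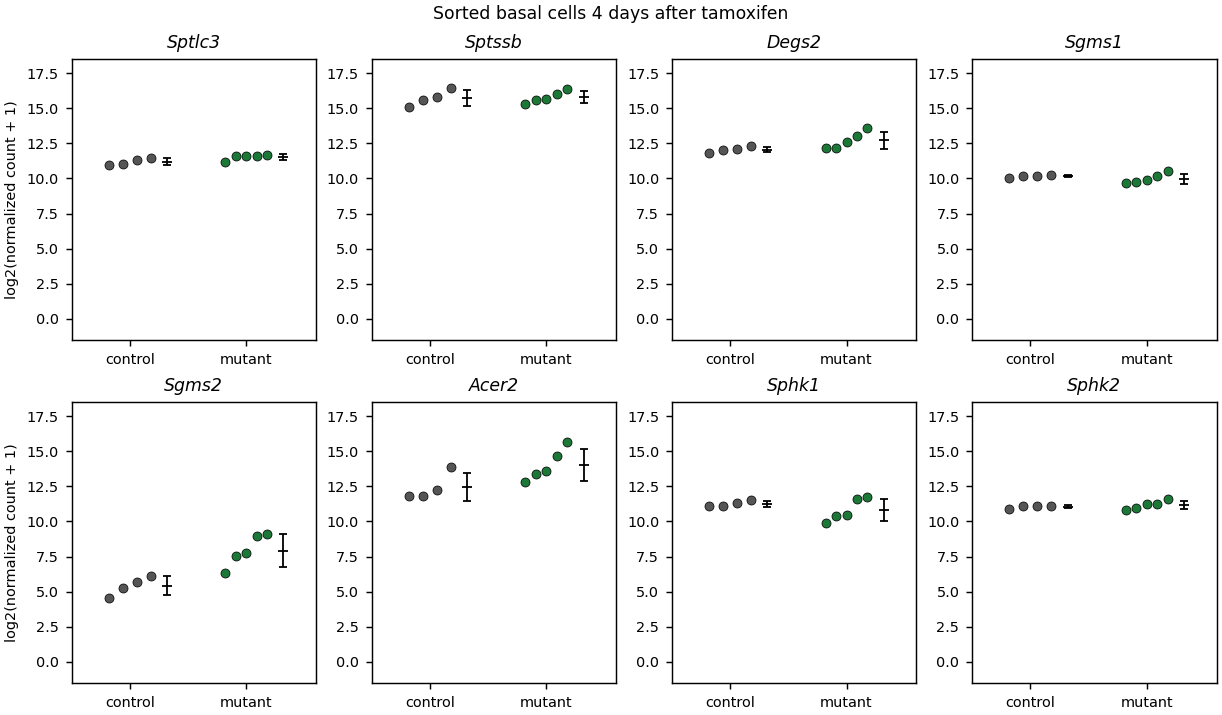
Log2(normalized count + 1) of 8 genes in each library of sorted basal cells (points, 4 controls and 5 mutants), with the mean and SD of the log2 values as a bar beside each group. Sgms2 is the one gene shown whose groups lie apart, and the high control point of Acer2 is CT063.

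In de novo synthesis no member passed the test at 4 days. Sptssb, a small subunit that speeds serine palmitoyltransferase and alters its choice of substrate, had the highest level of the 38 genes per kb of the longest coding transcript, with medians of 29781 normalized counts per kb in controls and 28846 in mutants. Sptlc1 and Sptlc2, the common subunits of the enzyme, and Sptlc3, a catalytic subunit that takes other acyl chains, had log2 fold changes of 0.07, 0.55 and 0.33 (adjusted p = 0.771, 0.0903 and 0.208). Sptlc2 did not overlap between the groups, with 3403 to 4722 normalized counts in controls and 4801 to 7925 in mutants. Degs2, a dihydroceramide desaturase that can also hydroxylate, had 3658 to 4959 in controls and 4489 to 12480.5 in mutants (log2 fold change 0.66, adjusted p = 0.213). For the desaturase Degs1 the log2 fold change was 0.60, for Kdsr, the reductase of the long-chain base, -0.15, for Sptssb 0.06 and for the other small subunit, Sptssa, -0.60, all with overlap. Ormdl1, Ormdl2 and Ormdl3, inhibitors of serine palmitoyltransferase, had log2 fold changes of 0.34, 0.25 and 0.11, also with overlap.

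Beyond de novo synthesis, Cerk, the ceramide kinase, had 671 to 1133 normalized counts in controls and 1176 to 2024 in mutants, with no overlap (log2 fold change 0.75, adjusted p = 0.0712). Groups did not overlap for 3 of 38 members (7.89%), all of them higher, beside 9.18% of all genes (4.67% higher and 4.51% lower). Acer2, an alkaline ceramidase of the Golgi, had 3561, 3649, 4862 and 15269 in controls and 7302, 10560.3, 12570.4, 25940.1 and 51298 in mutants (log2 fold change 1.58, adjusted p = 0.175). The 1 control within the range of the mutants was CT063, the control of low Y-linked score. Smpd3, a neutral sphingomyelinase, had 265 to 2445 in controls and 832 to 4836 in mutants, and Cers4, a ceramide synthase, had 68.8 to 343 and 135 to 894. Both genes overlapped between the groups, with log2 fold changes of 1.42 and 1.27. The other members of these roles had log2 fold changes from -0.44 (Sphk1, a sphingosine kinase) to 0.80 (Cers1), and all overlapped. Cers1 and Sgpp2 were low throughout, with 4.75 to 27.6 and 15.1 to 30.6 in mutants.

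Of 50 further genes of the pathway 48 were tested, and 4 were called higher and 1 lower in mutants, with a median log2 fold change of 0.33. These calls made up 10.4% of the genes tested from this list, beside 2.85% of all genes. Spns2, which exports sphingosine 1-phosphate, had 255, 309, 429.9 and 788 normalized counts in controls and 1112, 1446, 3011, 3118 and 3215 in mutants (log2 fold change 2.42, standard error 0.41, adjusted p = 0.0189), and every mutant lay above every control. Its call was lost without control CT065 (0.0628) or CT066 (0.0610). The part of fibroblasts and other cells in the values of Spns2 was not tested either. Elovl1 and Hsd17b12, which act in the lengthening of fatty acids, and B4galt6, a lactosylceramide synthase, rose by 0.68, 0.94 and 0.73 on the log2 scale.

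The second comparison set luminal tumors against basal tumors and asked how the pathway stood in established tumors. Sptlc3, Sptssb, Degs2 and Acer2 were higher in luminal tumors, and no member was called lower. Of 38 members 37 were tested, Cers1 being too low, and 4 were called, where 2.2% of all 15357 genes were called (1.26% higher and 0.938% lower). The median log2 fold change was 0.34 over the members and -0.11 over all genes. Groups did not overlap for 12 of 37 members (32.4%, 7 higher and 5 lower), beside 21.5% of all genes (9.98% higher and 11.6% lower). An unadjusted p under 0.05 was found for 13 of 37 members and for 18.4% of all genes. The fit also held the 2 luminal domains of this table, for the estimate of the spread.

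Sptlc3 had 0, 0.858 and 89.5 normalized counts in basal tumors and 856, 3745 and 4330.3 in luminal tumors. It was close to the floor in 2 of 3 basal tumors, and every luminal tumor lay above every basal tumor. The mean was 30.1 ± 51.4 (SD, n = 3) and 2977 ± 1860.3 (SD, n = 3), with a log2 fold change of 8.77 and a standard error of 1.59 (limma, adjusted p = 0.0360). The call was lost (adjusted p in brackets) without basal tumor CT111 (0.115) or CT113 (0.0589), or without luminal tumor CT126 (0.121) or CT132 (0.129), or without luminal domain CT128 (0.0613) or CT143 (0.0586).

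Sptssb had 4347, 6501 and 15059 normalized counts in basal tumors and 49178, 109351 and 210248 in luminal tumors. The lowest luminal tumor stood well above the highest basal tumor. The mean was 8636 ± 5666 (SD, n = 3) and 122926 ± 81389 (SD, n = 3), with a log2 fold change of 3.79 and a standard error of 0.70 (limma, adjusted p = 0.0364). The call was lost without basal tumor CT111 (0.124) or CT115 (0.0859), or without luminal tumor CT126 (0.114) or CT132 (0.122).

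Degs2 had 8.35, 34.8 and 354 normalized counts in basal tumors and 6350.5, 11630.0 and 11689.6 in luminal tumors. Basal tumors were spread over a wide range below the luminal tumors, which were close together. The mean was 132 ± 193 (SD, n = 3) and 9890.0 ± 3065 (SD, n = 3), with a log2 fold change of 7.60 and a standard error of 1.08 (limma, adjusted p = 0.0199). The call was lost without basal tumor CT111 (0.0903), or without luminal tumor CT126 (0.0904) or CT132 (0.0943).

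Acer2 had 396, 836 and 1094 normalized counts in basal tumors and 14303, 15733 and 45374 in luminal tumors. All 3 luminal tumors lay above all 3 basal tumors. The mean was 776 ± 353 (SD, n = 3) and 25137 ± 17541 (SD, n = 3), with a log2 fold change of 4.92 and a standard error of 0.88 (limma, adjusted p = 0.0340). The call was lost without basal tumor CT111 (0.119), CT113 (0.0612) or CT115 (0.0648), or without luminal tumor CT126 (0.100) or CT132 (0.122).

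Markers of other cells differed between these tumors too. All 9 superficial markers had positive log2 fold changes, with sums of 20666 to 29088 normalized counts in basal and 218177 to 1057120.0 in luminal tumors and none at 0. All 8 fibroblast markers were negative, with sums of 49831 to 74061 and 222 to 18989, Lum being at 0 in 1 and Pdgfrb in 2 of 3 luminal tumors. All 6 smooth muscle markers were negative as well, with sums of 6009.9 to 51208 and 149.6 to 1254, Des being at 0 in all 3 luminal tumors. So were the 8 immune markers tested, the 5 endothelial markers and 7 of 8 basal markers. The part of these cells in the values of the sphingolipid genes was not tested.

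**Figure D3:**
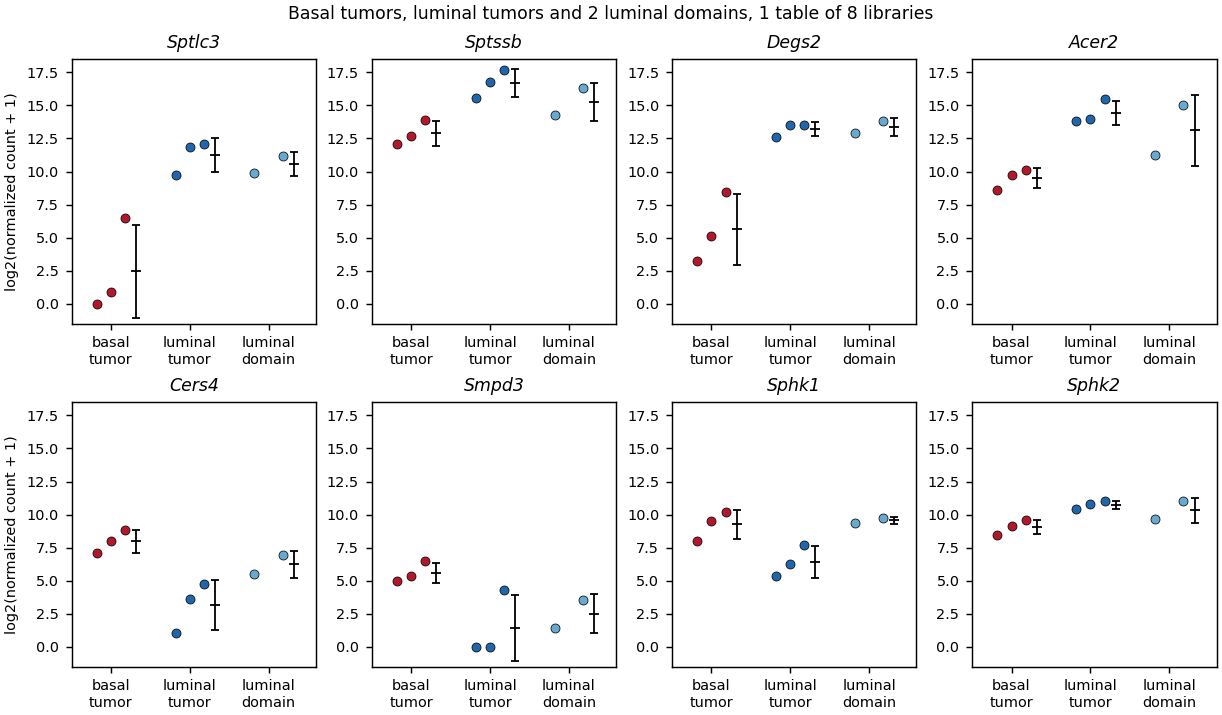
Log2(normalized count + 1) of 8 genes in each library of 3 basal tumors, 3 luminal tumors and 2 luminal domains (points), with the mean and SD of the log2 values as a bar beside each group. Sptlc3, Sptssb, Degs2 and Acer2 were called higher in luminal tumors, and Cers4, Smpd3, Sphk1 and Sphk2 lay apart between basal and luminal tumors without passing the adjusted threshold.

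The rest of de novo synthesis was not called. Degs1 had 1013, 2887 and 9440.4 normalized counts in basal tumors and 9.96, 303 and 1429 in luminal tumors, and the groups overlapped (log2 fold change -4.17, standard error 1.54, adjusted p = 0.196). Sptlc1 lay apart, with 1137 to 1522 and 1979 to 3252 (log2 fold change 0.84, adjusted p = 0.256). Sptlc2, Kdsr and Sptssa had log2 fold changes of 0.57, 0.76 and -0.45, and Ormdl1, Ormdl2 and Ormdl3 of 0.79, 0.38 and 0.34, all with overlap.

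Of the ceramide synthases, Cers4 had 136, 262 and 452 normalized counts in basal tumors and 1.06, 11.4 and 25.7 in luminal tumors (log2 fold change -4.85, standard error 1.32, adjusted p = 0.0973). Cers2, the synthase for very long acyl chains, had 3133, 3391 and 3636 in basal and 751, 1895 and 3027 in luminal tumors (log2 fold change -1.05, standard error 0.61, adjusted p = 0.395). Both genes lay apart between the groups and neither passed the threshold. Cers3, the synthase for the ultra-long acyl chains of the skin barrier, had 122, 144 and 1682 in basal and 1055, 1609 and 8478 in luminal tumors (log2 fold change 2.97, adjusted p = 0.187), with overlap. Cers5 and Cers6 had log2 fold changes of 0.00 and 0.37.

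Among enzymes that add a head group to ceramide, Sgms1, the sphingomyelin synthase of the Golgi, had 896, 2436 and 2815 normalized counts in basal and 323, 794 and 799 in luminal tumors (log2 fold change -1.63, standard error 0.59, adjusted p = 0.190). Sgms2, Ugcg (glucosylceramide synthase) and Cerk overlapped, with log2 fold changes of -1.09, -0.18 and 1.08. Of the sphingomyelinases, Smpd3 had 30.1, 39.3 and 87.6 in basal tumors and was listed at 0 in 2 luminal tumors and at 18.6 in the third (log2 fold change -4.16, adjusted p = 0.195). The values of Smpd1, Smpd2 and Smpd4 overlapped, at log2 fold changes of 0.90, -0.31 and -0.54. None of these 8 genes was called.

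Asah2, the neutral ceramidase, had 32.6, 88.8 and 97.7 normalized counts in basal tumors and 146, 342 and 455 in luminal tumors (log2 fold change 2.09, standard error 1.01, adjusted p = 0.308). Asah1, the acid ceramidase, and Acer1 and Acer3, further alkaline ceramidases, overlapped at log2 fold changes of -0.11, -0.05 and 0.22. The sphingosine kinases differed in sign, and neither passed the threshold. Sphk1 had 262, 742 and 1173 in basal tumors and 39.2, 74.8 and 212 in luminal tumors (log2 fold change -2.82, standard error 0.87, adjusted p = 0.133). Sphk2 had 358, 575 and 753 in basal tumors and 1364, 1787 and 2039 in luminal tumors (log2 fold change 1.67, standard error 0.50, adjusted p = 0.129). Both kinases thus lay apart between the groups, Sphk1 with the lower values in luminal tumors. Sgpl1, the lyase that ends the pathway, and the phosphatases Sgpp1 and Sgpp2 overlapped at log2 fold changes of 1.01, -1.35 and -4.23. Galc, Glb1 and Hexa, lysosomal enzymes that trim glycolipids, overlapped at 0.26, 0.80 and 0.64.

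Of the 50 further pathway genes 47 were tested, with 3 called higher and 0 lower in luminal tumors (14 had an unadjusted p under 0.05) and a median log2 fold change of 0.57. Among all genes 2.2% were called and 18.4% had an unadjusted p under 0.05. Fa2h, which hydroxylates the fatty acids of ceramide, had 1.18, 27.1 and 59.2 normalized counts in basal tumors and 1263, 1406 and 2198 in luminal tumors (log2 fold change 6.67, adjusted p = 0.0303). A4galt, a glycolipid synthase, had 31.8, 99.0 and 102 in basal and 588, 685 and 1400.4 in luminal tumors (log2 fold change 3.57, adjusted p = 0.0494). Cptp, a transfer protein for ceramide 1-phosphate, had 589, 651 and 1063 in basal and 2018, 2806 and 3473 in luminal tumors (log2 fold change 1.86, adjusted p = 0.0495). For all 3 genes the groups lay apart. These calls were also lost in fits with fewer libraries. That of Fa2h was lost without luminal tumor CT126 (0.106) or CT132 (0.122), or without luminal domain CT128 (0.0566) or CT143 (0.0549). That of A4galt was lost without basal tumor CT111 (0.134), CT113 (0.0657) or CT115 (0.0838), or without luminal tumor CT126 (0.132), CT132 (0.130) or CT140 (0.0720), or without luminal domain CT128 (0.0870) or CT143 (0.0781). That of Cptp was lost without basal tumor CT111 (0.103), CT113 (0.108) or CT115 (0.115), or without luminal tumor CT126 (0.151) or CT132 (0.188), or without luminal domain CT128 (0.0870) or CT143 (0.0845).

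The third comparison set luminal domains of mixed lesions against the same 3 basal tumors, which it shares with the comparison of luminal tumors. Degs2 and Sptlc3 were higher in luminal domains. Of 38 members 36 were tested, Cers1 and Acer1 being too low, and 2 were called, where 2.53% of all 14921 genes were called (1.7% higher and 0.824% lower). The median log2 fold change was 0.68 over the members and 0.01 over all genes. Groups did not overlap for 13 of 36 members (36.1%, 11 higher and 2 lower), beside 26.8% of all genes (14% higher and 12.8% lower). An unadjusted p under 0.05 was found for 12 of 36 members and for 20.6% of all genes.

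Degs2 had 8.63, 36.7 and 369 normalized counts in basal tumors and 8251, 11328 and 15729 in luminal domains. The mean was 138 ± 201 (SD, n = 3) and 11769 ± 3758 (SD, n = 3), with a log2 fold change of 7.79 and a standard error of 1.17 (limma, adjusted p = 0.0258). Every domain lay far above every basal tumor. The call was lost without basal tumor CT111 (0.0959), or without luminal domain CT128 (0.122), CT143 (0.123) or CT148 (0.0953).

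Sptlc3 had 0, 0.899 and 92.8 normalized counts in basal tumors and 1045, 2518 and 2571 in luminal domains, again without overlap. The mean was 31.2 ± 53.3 (SD, n = 3) and 2045 ± 866 (SD, n = 3), with a log2 fold change of 8.39 and a standard error of 1.70 (limma, adjusted p = 0.0480). The call was lost without basal tumor CT111 (0.138) or CT113 (0.0622), or without luminal domain CT128 (0.173), CT143 (0.165) or CT148 (0.151).

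Other members lay apart without passing the adjusted threshold. Sptssb had 4556, 6736 and 15474 normalized counts in basal tumors and 20859, 84909 and 93980.1 in luminal domains (log2 fold change 2.82, standard error 0.66, adjusted p = 0.0720). Acer2 had 378, 783 and 1033 in basal tumors and 2347, 5282 and 31990.0 in luminal domains (log2 fold change 3.44, standard error 0.88, adjusted p = 0.0887), with a wide spread among the domains. Cers3 had 126, 152 and 1754 in basal tumors and 2145, 2362 and 4882 in luminal domains (log2 fold change 3.17, standard error 0.97, adjusted p = 0.128). One basal tumor, CT115, stood near the domains, and without it Cers3 was called (adjusted p = 0.0322). This was the only call in 6 such fits, where the adjusted p reached 0.314. CT115 is the library that goes against the difference, so the call without it decides nothing.

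Kdsr, which makes the long-chain base, had 756, 1009 and 1529.5 normalized counts in basal tumors and 1835, 2262 and 2782 in domains (log2 fold change 1.10, adjusted p = 0.165). Ormdl3, which restrains its synthesis, had 786, 1048 and 1326 in basal tumors and 1956, 1966 and 2484 in domains (log2 fold change 1.04, adjusted p = 0.152). Sptlc1 and Sptlc2 lay apart with log2 fold changes of 0.91 and 0.88. All 4 genes thus had higher values in every domain than in every basal tumor, with no call.

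In breakdown, Asah2 had 34.4, 91.9 and 102 normalized counts in basal tumors and 140.0, 154 and 729 in domains (log2 fold change 1.85, adjusted p = 0.347). Sphk2 had 381, 599 and 791 in basal tumors and 888, 1101 and 2227 in domains (log2 fold change 1.20, adjusted p = 0.240). Cers4 and Smpd3 were the 2 members with lower values in every domain. Cers4 had 129, 245 and 420.0 in basal tumors and 23.6, 43.7 and 119 in domains (log2 fold change -2.22, adjusted p = 0.261), and Smpd3 had 31.7, 40.7 and 91.4 in basal tumors and 1.90, 6.40 and 11.7 in domains (log2 fold change -2.95, adjusted p = 0.216). The other members tested overlapped between groups, with log2 fold changes from -3.04 (Sgpp2) to 1.53 (Cerk).

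Superficial markers were again 9 of 9 positive, with sums of 21764 to 30027 normalized counts in basal tumors and 150062 to 641903 in domains. Fibroblast markers were 8 of 8 negative (51588 to 78269 and 7386 to 33672, none at 0), and smooth muscle markers 6 of 6 negative (6298 to 57231 and 1430.3 to 1911, Cnn1 being at 0 in all 3 domains). Basal urothelial markers were 7 of 8 negative with 1 called lower (342336 to 826686 and 337382 to 612993), endothelial markers 4 of 5 positive (1851 to 2967 and 1863 to 3926) and immune markers 4 of 8 positive (33531 to 143231 and 21121 to 42526). Their part in the values was not tested.

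Of the 47 further pathway genes tested in the domains, 3 were called higher and 0 lower (17 had an unadjusted p under 0.05), with a median log2 fold change of 0.85. Among all genes 2.53% were called and 20.6% had an unadjusted p under 0.05. Fa2h had 1.23, 27.8 and 61.2 normalized counts in basal tumors and 2575, 3404 and 4617 in domains (log2 fold change 7.76, adjusted p = 0.0283). A4galt had 32.2, 98.9 and 101 in basal tumors and 884, 2597 and 3378 in domains (log2 fold change 4.83, adjusted p = 0.0299). Neu1, the lysosomal sialidase, had 735, 817 and 1041 in basal tumors and 2275, 2694 and 3075 in domains (log2 fold change 1.64, adjusted p = 0.0476). The groups lay apart for all 3 genes. The call of Fa2h was lost without luminal domain CT128 (0.127), CT143 (0.135) or CT148 (0.105), that of A4galt without basal tumor CT111 (0.0847) or CT115 (0.0521), or without luminal domain CT128 (0.127), CT143 (0.119) or CT148 (0.125), and that of Neu1 without basal tumor CT111 (0.106), CT113 (0.0693) or CT115 (0.0886), or without luminal domain CT128 (0.136), CT143 (0.190) or CT148 (0.149).

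The last comparison set the basal-like domain against the luminal domain of mixed lesions, and it shares the luminal domains with the one before. The test was unpaired, because the labels do not say which domains come from one lesion. No member passed the test (limma), and among all 14874 genes tested 0% were called. An unadjusted p under 0.05 was found for 757 genes (5.09%) and for 1 of the 35 members tested, Cers1, Smpd3 and Sgpp2 being too low. Fitted without a trend in the variance, limma called 20 genes, none of them a member. The median log2 fold change was -0.21 over the members, with 22 of 35 negative, and 0.01 over all genes.

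Degs1 (chr1:182275964-182282854) had 591, 763 and 1159 normalized counts in luminal domains and 1256, 1719.7 and 2033 in basal-like domains. The groups lay apart, and the difference did not pass the threshold. The mean was 838 ± 291 (SD, n = 3) and 1669 ± 391 (SD, n = 3), with a log2 fold change of 1.02 and a standard error of 0.37 (limma, adjusted p = 0.935). Cers5 was apart as well, with 1030.3 to 1416 and 1423 to 2611, and Sptlc2 the other way, with 5345 to 7430.2 and 3849 to 5294. Such non-overlap was seen in 3 of 35 members (8.57%, 2 higher and 1 lower) and in 10.8% of all genes (5.62% higher and 5.14% lower).

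The genes called in the tumors were present in both domains. Degs2 had 8464, 11609 and 15929.6 normalized counts in luminal and 3757, 5917 and 11652 in basal-like domains (log2 fold change -0.86, 95% interval -1.85 to 0.12). Sptlc3 had 1086, 2584 and 2669 in luminal and 805, 1257 and 1548 in basal-like domains (log2 fold change -0.75, 95% interval -1.77 to 0.26). For these 2 genes the interval leaves out a log2 fold change of -2. Sptssb had 21714, 87266 and 97741 in luminal and 14158, 26093 and 40348 in basal-like domains (log2 fold change -1.21, 95% interval -2.63 to 0.21). Acer2 had 2725, 6127 and 36666 in luminal and 1606, 1984 and 13083 in basal-like domains (log2 fold change -1.29, 95% interval -3.73 to 1.15). All 4 genes overlapped between the domains. For each the lowest, middle and highest values were lower in basal-like than in luminal domains, an order not counted over all genes. The 4 genes were picked for high values in luminal captures, and Degs2 and Sptlc3 were called with these same luminal domains. That choice favors lower values in the other group. An unpaired test uses no tie between domains of one lesion, and such ties were not tested.

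Sgms2 gave the largest log2 fold change among the members tested here, 2.10, on 11.1, 663 and 854 normalized counts in luminal and 339.8, 1174 and 1343 in basal-like domains, with overlap. The 3 Ormdl genes and the 3 lysosomal glycosidases all had negative log2 fold changes, from -0.68 (Galc) to -0.21 (Ormdl2), without a call. Pparg had 4116 to 5427 in luminal and 2326 to 3230.2 in basal-like domains. Superficial markers were 9 of 9 negative (sums of 153141 to 646235 and 48366 to 180960.0), basal markers 8 of 8 positive (349051 to 630811 and 382615 to 951234) and fibroblast markers 7 of 8 positive (7654 to 34679 and 16329 to 109796). Of the smooth muscle markers tested 4 of 4 were positive (1439.7 to 1921 and 1929 to 7195, sums that do not overlap), of the immune markers 5 of 8 (21669.8 to 43428 and 21664 to 83324) and of the endothelial markers 2 of 5 (1894 to 3928 and 1328 to 6715). None of these lists held a call, and their part was not tested. Of the 47 further pathway genes tested none was called, and 5 had an unadjusted p under 0.05, beside 5.09% of all genes.

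**Figure D4:**
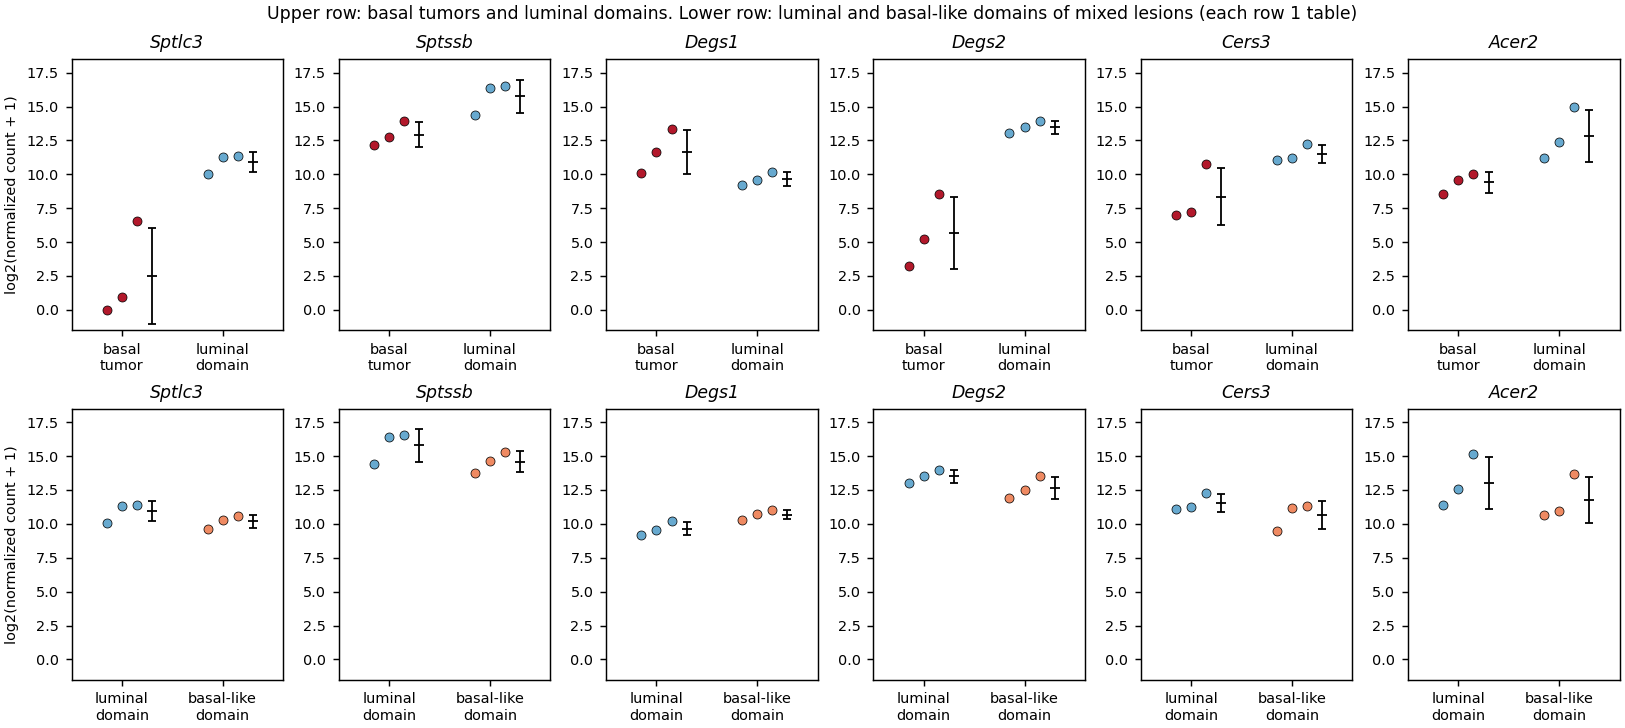
Log2(normalized count + 1) of 6 genes in each library (points), with the mean and SD of the log2 values as a bar. The upper row shows 3 basal tumors and 3 luminal domains, the lower row 3 luminal and 3 basal-like domains, each row from 1 table. Sptlc3 and Degs2 are far apart in the upper row and overlap in the lower row.

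Several members are one of a pair of enzyme forms, so the share of each form was taken within a library, per kb of transcript, as a description with no test. The tables were normalized separately, and the longest coding transcript may not be the one expressed. Degs2 made up 89.1% to 93.2% of Degs1 and Degs2 together in control basal cells and 84.2% to 96.9% in mutants. It made up 0.966%, 1.41% and 4.26% in basal tumors and 84.0%, 97.9% and 99.9% in luminal tumors. In the mixed lesions it was 92.2%, 94.4% and 96.1% on the luminal side and 68.6%, 80.3% and 91.7% on the basal-like side. Among these groups, Degs1 was the larger form in the basal tumors only.

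Sptlc3 made up 57.6% to 59.3% of Sptlc2 and Sptlc3 together in control basal cells and 49.0% to 61.6% in mutants. It made up 0%, 0.0554% and 6.37% in basal tumors and 37.3%, 63.4% and 68.9% in luminal tumors. The share was 26.2% to 54.0% in luminal domains and 27.0% to 44.3% in basal-like domains. Basal tumors were below every library of the other groups in this share.

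Sptssb made up 85.1% to 95.8% of Sptssa and Sptssb together in controls, 92.6% to 97.5% in mutants, 22.7%, 46.9% and 67.2% in basal tumors and 80.1% to 98.0% in luminal tumors. It was the larger form in every library other than 2 basal tumors. Sgms2 was the smaller form beside Sgms1 in sorted cells, with 1.26% to 3.98% in controls and 5.53% to 23.6% in mutants. Acer2 made up 84.5% to 95.6% beside Acer3 in controls, 14.4%, 30.9% and 56.1% in basal tumors and 83.8% to 96.8% in luminal tumors. Sphk2 made up 18.6%, 36.7% and 68.3% beside Sphk1 in basal tumors and 87.8% to 96.3% in luminal tumors. For these last 2 pairs every luminal tumor was above every basal tumor, but luminal domains overlapped with basal tumors in their common table. There the share of Acer2 was 13.1%, 28.5% and 53.2% in basal tumors and 51.2%, 76.8% and 98.2% in luminal domains, and that of Sphk2 was 18.1%, 35.9% and 67.5% and 40.7%, 69.0% and 81.0%.

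**Figure D5:**
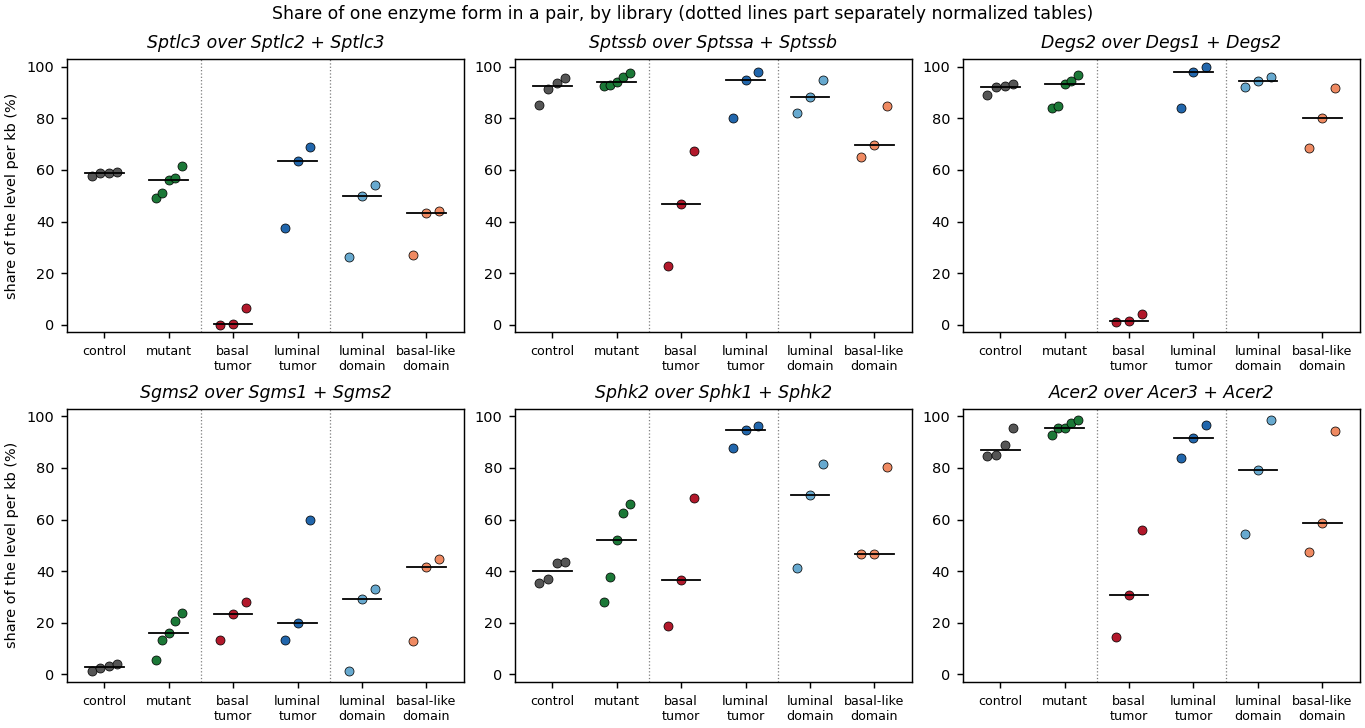
Share of one enzyme form in the summed level per kb of a pair (vertical axis, percent), by library (points) in the 6 groups, with the group median as a line and dotted lines between separately normalized tables. In the panels of Sptlc3 and Degs2 the 3 basal tumors lie at 0% to 6.37% and 0.966% to 4.26%, below every other library.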

How the data were processed

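RNA from sorted cells and laser-captured tumors was sequenced by the authors, with kallisto 0.44.0, bcl2fastq 2.20 and DESeq2 1.18 named in the submitters' processing notes. The deposited tables hold the authors' normalized count signal per gene, scaled by DESeq2 in each table on its own. Whole reads could not be recovered, as 4.95% to 40.3% of values under 20 were whole multiples of the commonest low value (tolerance 0.01), so no count model was used. No pair of libraries was identical (0 pairs). Columns were tied to groups, not to single samples, and libraries are named by their column. The 8 per-sample columns of the table of untreated and BBN-treated wild-type urothelium were not used, because no sample label says which are treated. Lists of the authors' fold changes and p-values were not used.

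Genes were kept if 4 libraries (4 days) or 3 (tumors) reached a normalized count of 10, and were tested on log2(normalized count + 1) with limma 3.58.1 (lmFit and eBayes with a trend) in R 4.3.3, two-sided, with Benjamini-Hochberg adjustment over all genes tested and a threshold of 0.05. Fold changes are on that log2 scale, which understates those of low genes. A p above the threshold does not show that groups are alike. Groups do not overlap where every library of one lies above every library of the other.

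The members, the 50 further pathway genes and the marker lists (superficial, basal, squamous, immune, fibroblast, smooth muscle, endothelial and Y-linked) were chosen with earlier results of these data known. Library values are given for members called, or with a log2 fold change of at least 1 in size and no overlap. For further pathway genes they are given for those called with such a fold change. Some other members were named after their values were seen. The further pathway gene called lower at 4 days is not reported here. Of the squamous list, 5 of 7, 4 of 10, 6 of 10 and 7 of 10 markers tested were positive in the 4 comparisons in the order of the report. Promoters came from RefSeq GRCm38.p6 and held 36 of 38 members. Alternatives were other pseudocounts (0.5 and 5), no filter, no trend, array weights, quantile and upper quartile scaling, other library sets and leaving out each library.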

Additional observations from a re-analysis of the deposited data

Results flagged for a closer look

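Of 76 sets of values of 1 gene in 1 group of 4 or 5 libraries, 1 held a library far from the rest. Sptlc3 had 2301 normalized counts in the 4-day mutant CT076, while the other 4 mutants had 3117 to 3253. The gap was 0.876 of the range on the log2 scale, and chance alone flags about 1 in 20 such sets.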

How the results depend on the processing

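No paired analysis was possible because the columns carry no replicate numbers. All 469 alternative values of single named genes kept their direction, but their size moved. Without 1 library the log2 fold change of Sptlc3 in luminal tumors was 7.53 to 10.8, and that of Degs2 was 6.40 to 9.02. In luminal domains that of Acer2 was 2.38 to 4.27. The calls were less stable than the directions, and the cause was not tested. At 4 days the 1 called member, Sgms2, was lost (0 called) with no filter (limma, adjusted p = 0.0559), no trend (0.0734) or upper quartile scaling (0.0542). It was also lost in the table of 3 controls and 3 mutants (0.240). With low Y-linked scores only, the log2 fold change of Sgms2 was 3.36, above the 2.51 reported. That setting has 1 control and cannot decide the call. In luminal tumors the 4 called members became 1 with no filter and 0 without a trend. Sptlc3 was also lost with basal and luminal tumors only (adjusted p = 0.0607). In luminal domains the 2 called members became 1 (Degs2) with a pseudocount of 0.5, no filter, quantile or upper quartile scaling, and 0 without a trend. Of the further pathway genes in luminal tumors, A4galt and Cptp were called in 3 of 9 settings other than leaving out a library and Fa2h in 6 of 9. In luminal domains Neu1 was called in 3 of 7 and Fa2h and A4galt in 6 of 7, and at 4 days Spns2 in 7 of 9. Leaving out 1 library gave 0 to 1, 0 to 4, 0 to 3 and 0 called members in the 4 comparisons.

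Counts over all genes moved by more than 1.5 times under some settings. At 4 days 467 became 269 without a trend, 1054 with array weights, 147 in the smaller table and 129 to 596 without 1 library. In luminal tumors 338 became 52 with no filter, 142 without a trend, 142 with basal and luminal tumors only, 513 with luminal domains pooled and 3 to 813 without 1 library. In luminal domains 377 became 144 with no filter, 107 without a trend and 0 to 467 without 1 library. In basal-like domains 0 became 20 without a trend. The split of higher and lower calls went from 290 and 177 to 270 and 287 with quantile scaling at 4 days, and from 254 and 123 to 179 and 134 with upper quartile scaling in luminal domains. Upper quartile scaling moved the median of all genes in luminal domains from 0.01 to -0.14, and quantile scaling that in luminal tumors from -0.11 to 0.02. Read depth is unknown, so the precision of low values cannot be given.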

Other observations

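Some members differed widely between libraries of one group. Sgms2 had 11.9 normalized counts in luminal domain CT128, 702 in CT143 and 905 in CT148. Acer1, an alkaline ceramidase known from skin, had 228 in luminal domain CT128, 4.81 in CT143 and 1.07 in CT148, and in the luminal tumors 213 in CT132 and 0 in both others. Sgpp2, a phosphatase of sphingosine 1-phosphate, had 430.1 in basal tumor CT115, 73.4 in CT113 and 7.24 in CT111. Groups of 3 are too small for a test of a single library.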
